A study of Bos taurus with 14 samples.

Results

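Genes of fatty acid synthesis and desaturation were followed in longissimus dorsi, a back muscle, sampled from 14 adult female cattle. They were 10 rows of the deposited count table with the gene names ACLY, ACACA, FASN, ME1, ELOVL6, SCD, ELOVL5, FADS1, FADS2 and SREBF1. All 10 were found among the 18078 gene rows, each on a single row, and all 10 passed the filter on low counts. The restricted group were 7 offspring of dams fed below requirement from day 158 of gestation until birth, and the control group were 7 offspring of dams fed 100% of requirement over those days. The labels disagree on the restricted level, which is 70% of requirement in the description of the series and 50% in the treatment protocol. All calves were raised alike after birth, had free access to feed from day 301 and were sampled at slaughter on postnatal day 485. Whether any of the animals had a common sire is not given, so p-values measure the spread between these 14 samples.

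The making of new fatty acids is followed here from citrate, although acetyl-CoA can also be made from acetate, by ACSS2. ACLY splits cytosolic citrate into acetyl-CoA, ACACA carboxylates it to malonyl-CoA, and FASN builds palmitate from these units with NADPH, part of which is supplied by the malic enzyme ME1. ELOVL6 lengthens palmitate to stearate and SCD makes oleate from stearate, while FADS2, ELOVL5 and FADS1 desaturate and lengthen the polyunsaturated fatty acids taken from the diet. SREBF1 encodes the transcription factor SREBP-1, which drives most of these genes. In cattle new fatty acids are made chiefly in adipose tissue, and in muscle the fat cells between the fibres, seen in meat as marbling, carry the adipocyte gene ADIPOQ, which encodes the hormone adiponectin.

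The libraries held 13631018 to 17325779 counts each. Levels are given in CPM, the usual unit of reads scaled to a common library size, here with edgeR's normalization factors. The 9 muscle fibre markers summed to between 151600 and 207700 CPM in every animal, so fibre RNA was abundant in all of them. Of 13 adipocyte markers 11 passed the filter, and the summed level of the 12 found in the table ran from 144.8 to 379.1 CPM in restricted and from 133.0 to 320.5 CPM in control offspring, with restricted 7 highest and control 6 lowest. Much of this sum was AQP7, which alone was at 94.4 to 134 CPM in restricted and 93.5 to 136 CPM in control offspring. The sum therefore spans less than ADIPOQ, which ran from 1.07 to 21.2 CPM. The summed level of 5 liver and mammary markers ran from 0.648 to 50.9 CPM in restricted and from 0.754 to 2.89 CPM in control offspring. It was highest in restricted 7, where the liver gene ALB was at 44.2 CPM, against 9.26 CPM or less in every other animal, TTR at 4.30 against 0.967 CPM or less, and APOB at 1.08 against 0.138 CPM or less. A pair of animals stood apart and touch nearly every result on these genes. Restricted 7 had the highest ADIPOQ level, 21.2 CPM, and control 6 the lowest, 1.07 CPM on 18 reads, which lay 1.68 log2 units below the next animal on a range of 4.16. Restricted 7 was also the highest animal in the summed level of 8 interferon response genes, which ran from 9.46 to 298.8 CPM in restricted and from 8.40 to 140.3 CPM in control offspring. The same held for 7 fibroblast markers, at 462.8 to 1154 CPM in restricted and 399.8 to 1002 CPM in control offspring, and for 7 macrophage markers, at 13.5 to 32.9 CPM in restricted and 12.5 to 25.6 CPM in control offspring. The part of these in the results below was not tested. In whole muscle, fewer fat cells and less RNA per fat cell cannot be told apart.

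Per kilobase of gene length, SCD was the most abundant of the genes, at 68.9 ± 42.2 CPM per kilobase (SD, n = 14). SREBF1 followed at 25.1 ± 6.53, then ME1 at 11.7 ± 1.64 and FASN at 11.3 ± 5.60 on the same scale. ELOVL6 and ACLY were at 4.72 ± 3.6 and 4.71 ± 2.64, FADS2 at 3.03 ± 1.04, ACACA at 2.84 ± 1.23, ELOVL5 at 2.81 ± 1.57 and FADS1 at 1.39 ± 0.577. The steps between SCD and SREBF1, between SREBF1 and ME1 and between FASN and ELOVL6 were larger than the SD of either gene, and all other neighbours in this order differed by less than the larger of their SDs. The genes differed widely in how much they varied. The highest level was 36.7 times the lowest for ELOVL6, 15.3 times for SCD and 8.32 times for FASN. For ELOVL5, ACLY and ACACA it was 6.38, 5.09 and 4.76 times, and for FADS1 and FADS2 3.85 and 3.74 times. It was only 2.32 times for SREBF1 and 1.63 times for ME1, against a median of 1.76 times over all tested genes with reads in every animal. The SD of log2 CPM was 0.5 or more for 8 of the 10 genes and for 10.5% of all tested genes. Restricted 7 was the highest animal for 6 of the genes and control 6 the lowest for 5. Without restricted 7 the ratio of highest to lowest was 2.51 for ACACA, 2.67 for ACLY, 2.48 for ELOVL5, 4.39 for FASN and 6.90 for SCD, and without control 6 it was 8.34 for ELOVL6.

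**Figure D1:**
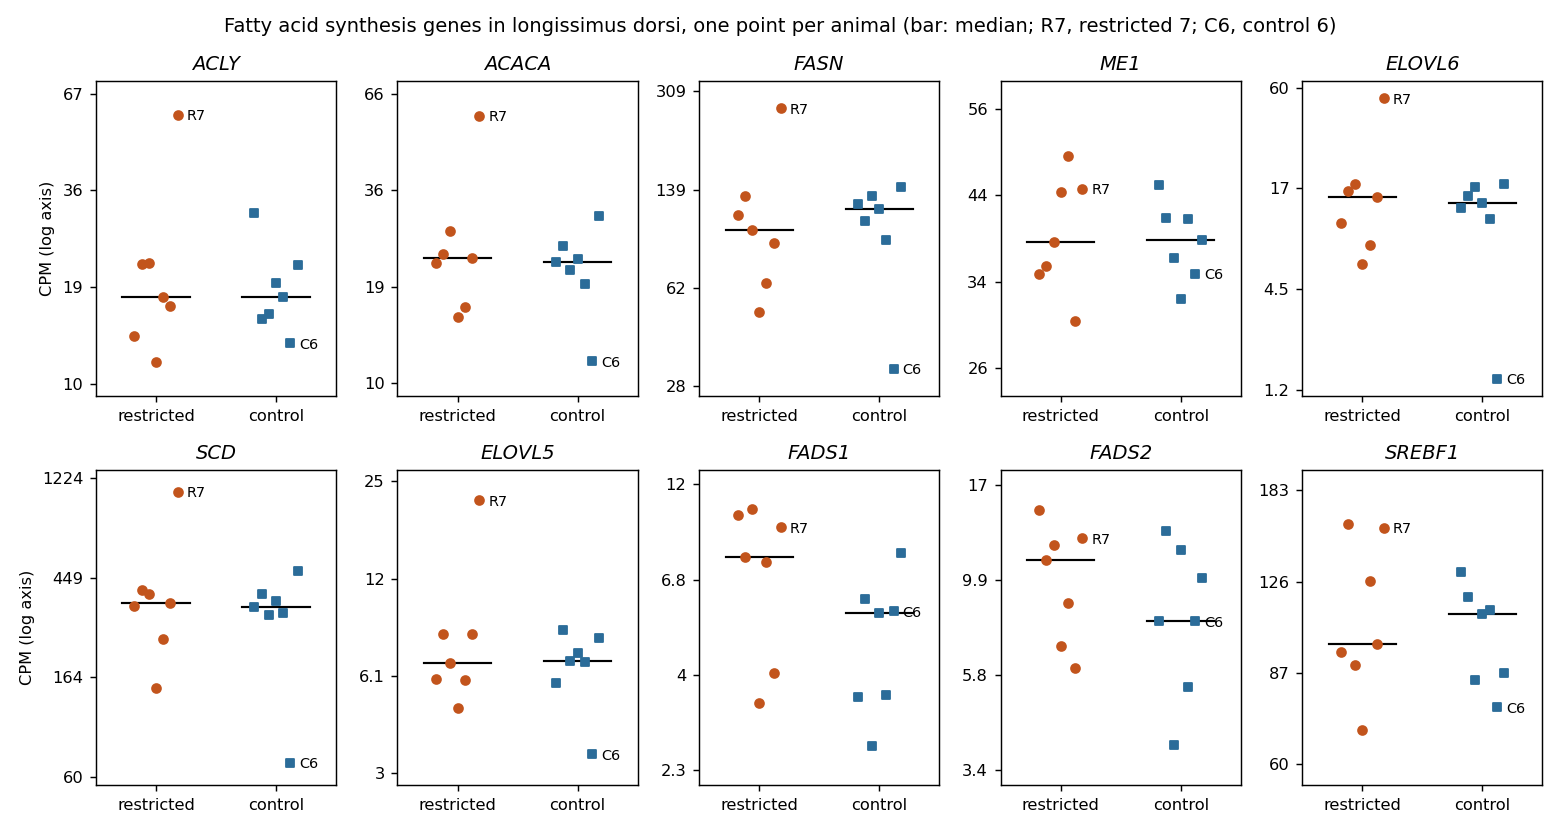
CPM of the 10 genes (vertical log axes, scaled per gene) in 7 restricted (circles) and 7 control (squares) offspring, with a bar at each group's median; R7 is restricted 7 and C6 is control 6. The groups overlap for every gene, restricted 7 stands above all others for ACLY, ACACA, FASN, ELOVL6, SCD and ELOVL5, and control 6 below all others for ACACA, FASN, ELOVL6, SCD and ELOVL5.

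The first comparison asked whether feeding of the dam in later gestation left a difference in these genes. None of the 10 passed the threshold, an adjusted p of 0.05 over all genes by edgeR's quasi-likelihood test, and the groups overlapped for each of them. Over all genes the count was 0 of 12187 (0%). At an unadjusted p under 0.05 there were 518 genes (4.25%), and 0 of the 10 were among them; DESeq2 called 1 gene, MTSS1L, and limma voom 0. All 10 fold changes, restricted over control, were above 1, with a median of 0.284 on the log2 scale against -0.001 over all tested genes. That count rested on single animals, since 5 of the 10 lay above 1 without restricted 7 and 2 of the 10 without both restricted 7 and control 6, a choice made after seeing the data.

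Among the genes that make and use acetyl-CoA, ACLY (ENSBTAG00000016740) ran from 11.5 to 58.4 CPM with a median of 17.6 in restricted offspring, and from 12.98 to 30.6 CPM with a median of 17.6 in control offspring. The medians all but coincided, and the top value belonged to restricted 7. The fitted fold change was 1.22 with a 95% interval of 0.781 to 1.90. ACACA (ENSBTAG00000017567), the committed step, ran from 16.0 to 57.2 CPM with a median of 23.1 in restricted and from 12.02 to 30.2 CPM with a median of 22.7 in control offspring. Here 4 of 7 restricted animals lay above the control median, and the fold change was 1.22 with an interval of 0.844 to 1.75. FASN (ENSBTAG00000015980) ran from 51.3 to 268.6 CPM with a median of 99.5 in restricted, against 32.3 to 141.5 CPM with a median of 118.9 in control offspring. Only 2 of 7 restricted animals exceeded the control median, although the fold change was 1.10 (0.676 to 1.78), and it was 0.859 without restricted 7 and 0.770 without both restricted 7 and control 6. By edgeR the unadjusted p was 0.361 for ACLY, 0.274 for ACACA and 0.692 for FASN, and the adjusted p was 1 for each.

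ME1 (ENSBTAG00000005681), a source of NADPH, was the steadiest of the genes. It ran from 30.0 to 48.9 CPM with a median of 37.9 in restricted and from 31.97 to 44.9 CPM with a median of 38.1 in control offspring. Its fold change was 1.03 with an interval of 0.884 to 1.2 (edgeR unadjusted p = 0.681, adjusted p = 1), the narrowest of the 10, which left out a difference of 1.5-fold in either direction. SREBF1 was the other gene whose interval left out a 1.5-fold difference.

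The enzymes that finish stearate and oleate spread most. ELOVL6 (ENSBTAG00000010564) ran from 6.29 to 52.4 CPM with a median of 14.8 in restricted offspring, against 1.43 to 17.4 CPM with a median of 13.7 in control offspring. Both ends were single animals: restricted 7 had 926 reads of ELOVL6 and the other restricted animals 91 to 268, while control 6 had 24 and the other control animals 148 to 279. SCD (ENSBTAG00000055207) ran from 147.8 to 1064 CPM with a median of 348.4 in restricted and from 69.4 to 478.5 CPM with a median of 332.5 in control offspring. The fold change was 1.42 for ELOVL6 (0.730 to 2.77) and 1.30 for SCD (0.744 to 2.28), and without restricted 7 it was 0.963 and 0.965. By edgeR their unadjusted p was 0.281 and 0.333, and the adjusted p was 1 for both. These intervals were wide enough to hold a 2-fold difference.

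Of the enzymes for polyunsaturated fatty acids, FADS1 (ENSBTAG00000022294), the delta-5 desaturase, had the smallest p of the 10. Its levels in restricted offspring 1 to 7 were 9.92, 7.80, 10.2, 3.38, 7.56, 4.01 and 9.23 CPM, against 3.51, 6.12, 2.66, 5.65, 3.54, 5.71 and 7.98 CPM in control offspring 1 to 7. Restricted 1, 2, 3, 5 and 7 lay above the control median of 5.65 CPM, while restricted 4 and 6 lay below it, so the groups overlapped. The fold change was 1.48 with an interval of 0.999 to 2.19 (edgeR unadjusted p = 0.0504, adjusted p = 1), and it stayed between 1.34 and 1.51 without restricted 7, without control 6, without both, and among the 9 animals whose title ends in A. FADS2 (ENSBTAG00000015505), the delta-6 desaturase, ran from 6.05 to 14.7 CPM with a median of 11.1 in restricted and from 3.93 to 13.01 CPM with a median of 7.86 in control offspring. Its fold change was 1.2 (0.838 to 1.72, unadjusted p = 0.296). FADS1 and FADS2 overlap in the RefSeq annotation of cattle and the strand setting of the counting is not known, so reads of either could have been counted for the other. ELOVL5 (ENSBTAG00000003359) ran from 4.84 to 22.01 CPM with a median of 6.74 in restricted and from 3.45 to 8.57 CPM with a median of 6.83 in control offspring, a fold change of 1.33 (0.865 to 2.06, unadjusted p = 0.178) that was 1 without restricted 7.

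SREBF1 (ENSBTAG00000007884), the transcription factor, ran from 68.7 to 159.2 CPM with a median of 97.7 in restricted and from 75.4 to 130.9 CPM with a median of 110.2 in control offspring. Its 2 highest animals, restricted 2 at 159.2 and restricted 7 at 157.0 CPM, and its lowest, restricted 4 at 68.7 CPM, were all restricted. The fold change was 1.11 with an interval of 0.853 to 1.43 (edgeR unadjusted p = 0.425, adjusted p = 1). In the RefSeq annotation SREBF1 overlaps MIR33B and RAI1, ACACA overlaps C19H17orf78, LOC112442606 and LOC112442838, FADS1 also overlaps LOC132344204 and LOC789170, and FASN overlaps MIR10179, and the same limit on strand applies to each.

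**Figure D2:**
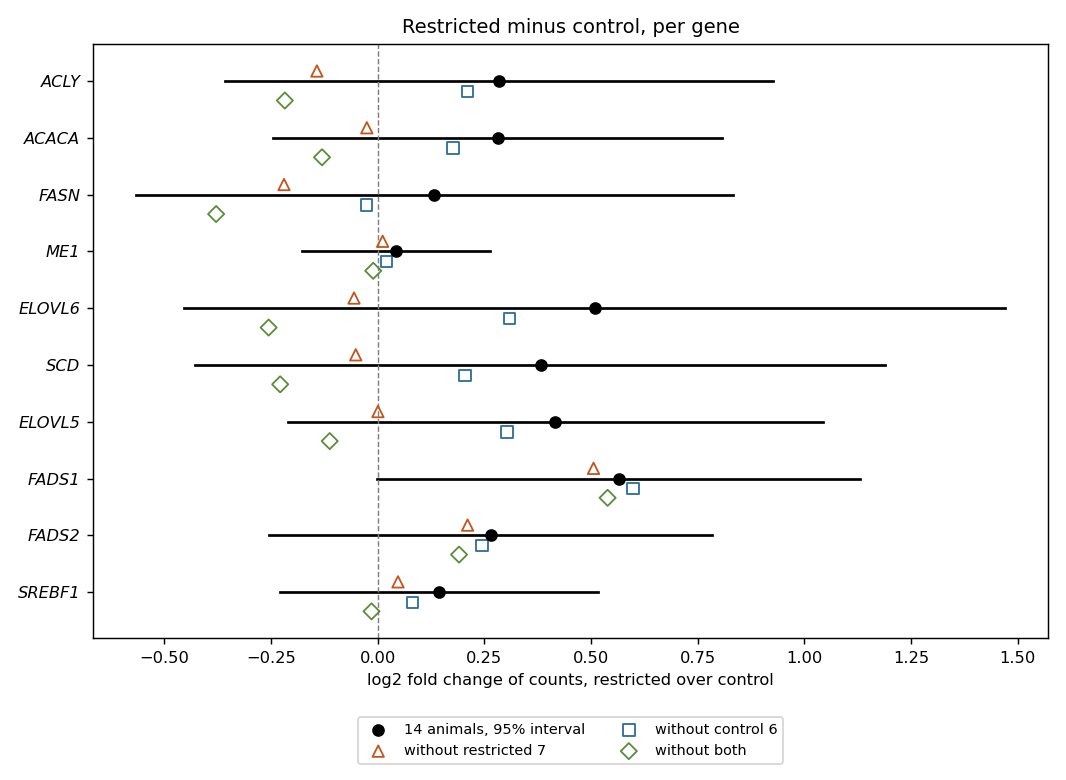
Log2 fold change of counts, restricted over control, for each gene: filled circles and lines give the fit of 14 animals with its 95% interval, and open symbols the fits without restricted 7, without control 6 and without both. Without restricted 7 the values of ACLY, ACACA, FASN, ELOVL6 and SCD lie below 0 and that of ELOVL5 at 0.001, while that of FADS1 stays at 0.506.

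With ADIPOQ as a covariate, which compares the diets at equal adipocyte signal, none of the 10 genes passed either. The fold change, restricted over control, was then 1.40 for ELOVL6 (0.985 to 1.98, edgeR unadjusted p = 0.0596), 1.48 for FADS1 (0.986 to 2.22, unadjusted p = 0.0575) and 1.27 for SCD (0.925 to 1.73, unadjusted p = 0.131). It was 1.07 for FASN, with an interval of 0.822 to 1.38 in place of 0.676 to 1.78. This fit was not repeated with animals left out. In a least-squares fit of log2 CPM on the same terms, restricted 7 lay above the fitted value for all 4 genes. The distance was 0.584 for ELOVL6, 0.401 for FADS1, 0.613 for SCD and 0.55 for FASN. Without ADIPOQ as a covariate, leaving out restricted 7 gave fold changes of 0.963 for ELOVL6, 1.42 for FADS1 and 0.965 for SCD. ADIPOQ itself ran from 3.72 to 21.2 CPM with a median of 7.61 in restricted and from 1.07 to 17.2 CPM with a median of 10.2 in control offspring, a fold change of 0.919 (0.483 to 1.75, unadjusted p = 0.786).

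The second comparison asked which of the genes moved with ADIPOQ from animal to animal. A slope, the log2 change of a gene per log2 unit of ADIPOQ at equal diet, was fitted for all genes. FASN, SCD and ELOVL6 rose with ADIPOQ, and were 3 of 23 genes (0.189% of the 12186 tested) that passed on the positive side; 0 genes (0%) passed on the negative side. The slope was 0.91 ± 0.13 for ELOVL6 (SE, 14 animals; adjusted p = 0.00666 by edgeR's quasi-likelihood test), so that a doubling of ADIPOQ went with 1.88 times as much ELOVL6. It was 0.70 ± 0.11 for SCD (adjusted p = 0.0152) and 0.60 ± 0.09 for FASN (adjusted p = 0.00990). Among the other genes that passed were the adipocyte markers FABP4, CIDEC, PLIN1, TRARG1 and LEP. Of the 10 genes ELOVL5 and ACACA came next, at 0.46 ± 0.10 and 0.40 ± 0.08, with adjusted p-values of 0.0724 and 0.0565 that missed the threshold. They passed by DESeq2 and without the filter on low counts.

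The other 5 genes had smaller slopes. ACLY was at 0.31 ± 0.13 (adjusted p = 1), with an interval of 0.036 to 0.577. SREBF1 was at 0.105 ± 0.089, FADS2 at 0.086 ± 0.123, FADS1 at 0.027 ± 0.129 and ME1 at -0.019 ± 0.054. Their intervals reached up to 0.294, 0.347, 0.302 and 0.095, so a slope as steep as the one fitted for FASN lay outside all 4, and outside that of ACLY too. The median slope over all genes tested was 0.001.

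The calls rested on the animals at the ends of the ADIPOQ range. The slope of FASN was 0.517 without restricted 7, 0.612 without control 6 and 0.343 without both; that of SCD was 0.599, 0.639 and 0.279, and that of ELOVL6 0.766, 0.808 and 0.380. In these 3 fits 7, 2 and 0 genes passed in all, with 602, 643 and 635 at an unadjusted p under 0.05, and none of the 10 was among those that passed. The count was 12 without control 3 and 12 without restricted 5, in both cases with FASN, SCD and ELOVL6 among them. The slope of ACLY was 0.088 without restricted 7 and -0.149 without both, and that of ME1 -0.286 without both. The unadjusted p of the 3 called genes without both animals was 0.0481 for FASN, 0.128 for SCD and 0.0584 for ELOVL6 (edgeR, adjusted p = 0.933 for each). With the last letter of the title as a covariate, a letter whose meaning the labels do not give, 9 genes passed, and of the 10 only ELOVL6 (adjusted p = 0.0372). None of the 10 passed among the animals whose title ends in A, nor without control 7, restricted 4 and restricted 7.

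**Figure D3:**
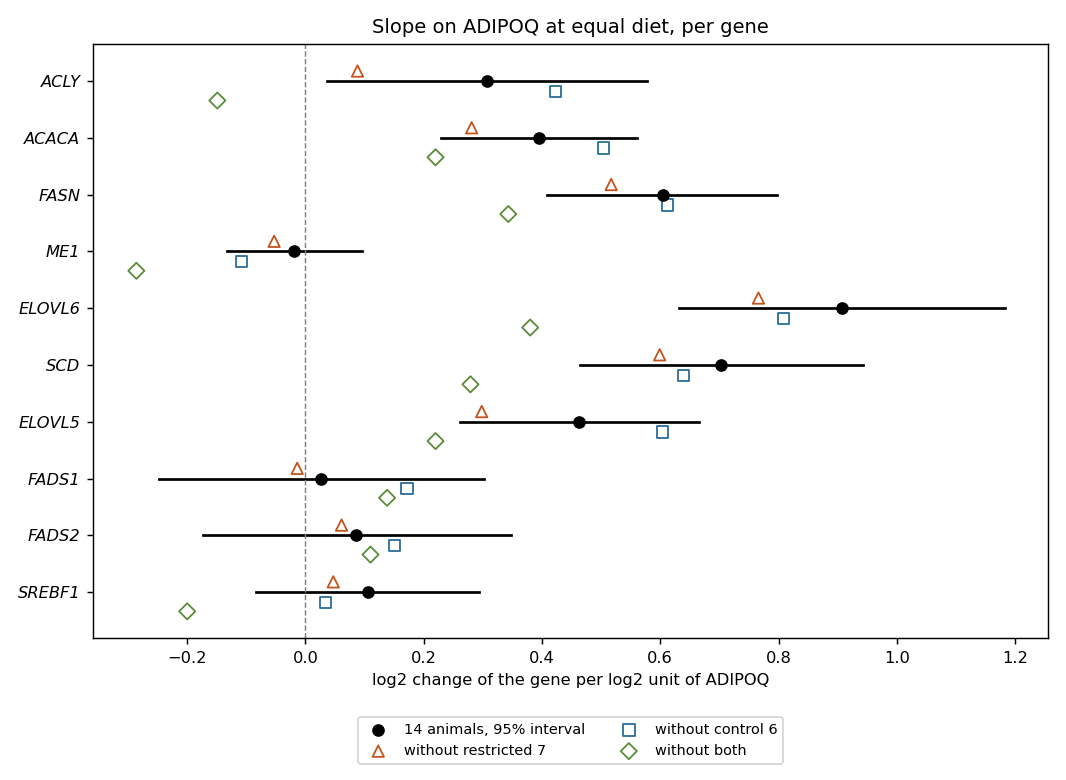
Slope of each gene on ADIPOQ (log2 change per log2 unit, at equal diet): filled circles and lines give the fit of 14 animals with its 95% interval, and open symbols the fits without restricted 7, without control 6 and without both. ELOVL6, SCD and FASN lie farthest to the right in the fit of 14 animals, at 0.907, 0.703 and 0.604, and without both animals they lie at 0.380, 0.279 and 0.343.

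Correlations of log2 CPM with ADIPOQ across the 14 animals were also computed, 10 for these genes and 12186 in all. Pearson's r was 0.883 for ELOVL6 (Spearman's rho 0.697; permutation p = 0.0002 and 0.00705), 0.867 for FASN (rho 0.789; permutation p = 0.00012 and 0.00131) and 0.844 for SCD (rho 0.618; permutation p = 0.00044 and 0.0212). For ACACA r was 0.780 (rho 0.631; permutation p = 0.00347 and 0.0184) and for ELOVL5 0.758 (rho 0.736; permutation p = 0.00693 and 0.00377). For ACLY it was 0.458 (rho 0.262; permutation p = 0.104 and 0.363). It was 0.295 for SREBF1 (rho 0.125; permutation p = 0.311 and 0.669), 0.106 for FADS2 (rho 0.174; permutation p = 0.72 and 0.553), 0.016 for FADS1 (rho 0.037; permutation p = 0.959 and 0.905) and -0.093 for ME1 (rho -0.178; permutation p = 0.756 and 0.541). All tests were two-sided. Adjusted over all 12186 genes, 0 genes (0%) passed by either coefficient, and the adjusted permutation p of Pearson's r was 0.112 for FASN, 0.141 for ELOVL6 and 0.208 for SCD. The 3 genes that passed in the slope fit missed the threshold here. With 100000 resamples the smallest possible p was 1e-05, so a gene alone at that p could not pass after adjustment over 12186. The count of 0 is thus partly set by the number of resamples.

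Restricted 7 and control 6 were also the 2 animals farthest from the median of ADIPOQ. Without them r was 0.654 for FASN (permutation p = 0.0189), 0.614 for ELOVL6 (permutation p = 0.0334), 0.565 for ACACA (permutation p = 0.055), 0.552 for ELOVL5 (permutation p = 0.0629) and 0.503 for SCD (permutation p = 0.0907), so that ACACA, ELOVL5 and SCD no longer passed an unadjusted 0.05. For ACLY r was -0.007 (permutation p = 0.983), so its relation rested on these animals. For ME1 r was -0.645 without them (permutation p = 0.0237).

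Within the diets the relation of FASN, SCD, ELOVL6, ACACA and ELOVL5 to ADIPOQ was positive in both. In restricted offspring r was 0.802 for FASN, 0.803 for ELOVL6 and 0.781 for SCD (exact permutation p = 0.0355, 0.0377 and 0.0504, n = 7), and in control offspring 0.961, 0.957 and 0.930 (exact permutation p = 0.00536, 0.000794 and 0.0185, n = 7). For ELOVL5 r was 0.848 in restricted and 0.910 in control offspring, and for ACACA 0.818 and 0.923. By rank the relation was weaker. Spearman's rho in restricted offspring was 0.68 for FASN, 0.504 for ELOVL6, 0.584 for SCD and 0.77 for ELOVL5. In control offspring it was 0.891, 0.933, 0.725 and 0.734. Each diet holds an animal from an end of the ADIPOQ range, restricted 7 or control 6. The part of these animals in the values within a diet was not tested. A difference of slope between the diets was tested in the same fit, and 0 of 12186 genes passed (0%), with 645 at an unadjusted p under 0.05. Among the 10 genes the smallest unadjusted p was 0.0104, for ELOVL5, whose slope was 0.489 ± 0.167 steeper in restricted than in control offspring (SE; edgeR adjusted p = 0.911). The slope was steeper in restricted offspring for 9 of the 10 genes, and for 1 of the 10 without restricted 7. The median difference of slope over all genes was -0.003, and -0.001 without restricted 7. Many of the 10 genes varied together, so they are not independent results. Among the 9 animals whose title ends in A, of both diets, r was 0.864 for FASN, 0.882 for ELOVL6, 0.826 for SCD, 0.861 for ELOVL5 and 0.798 for ACACA (exact permutation p = 0.00272, 0.00347, 0.00964, 0.00456 and 0.0109, unadjusted), and the letter B had too few animals for a value of its own. These 9 animals include control 6 but not restricted 7, and none of the 10 genes passed among them after adjustment over all genes.

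**Figure D4:**
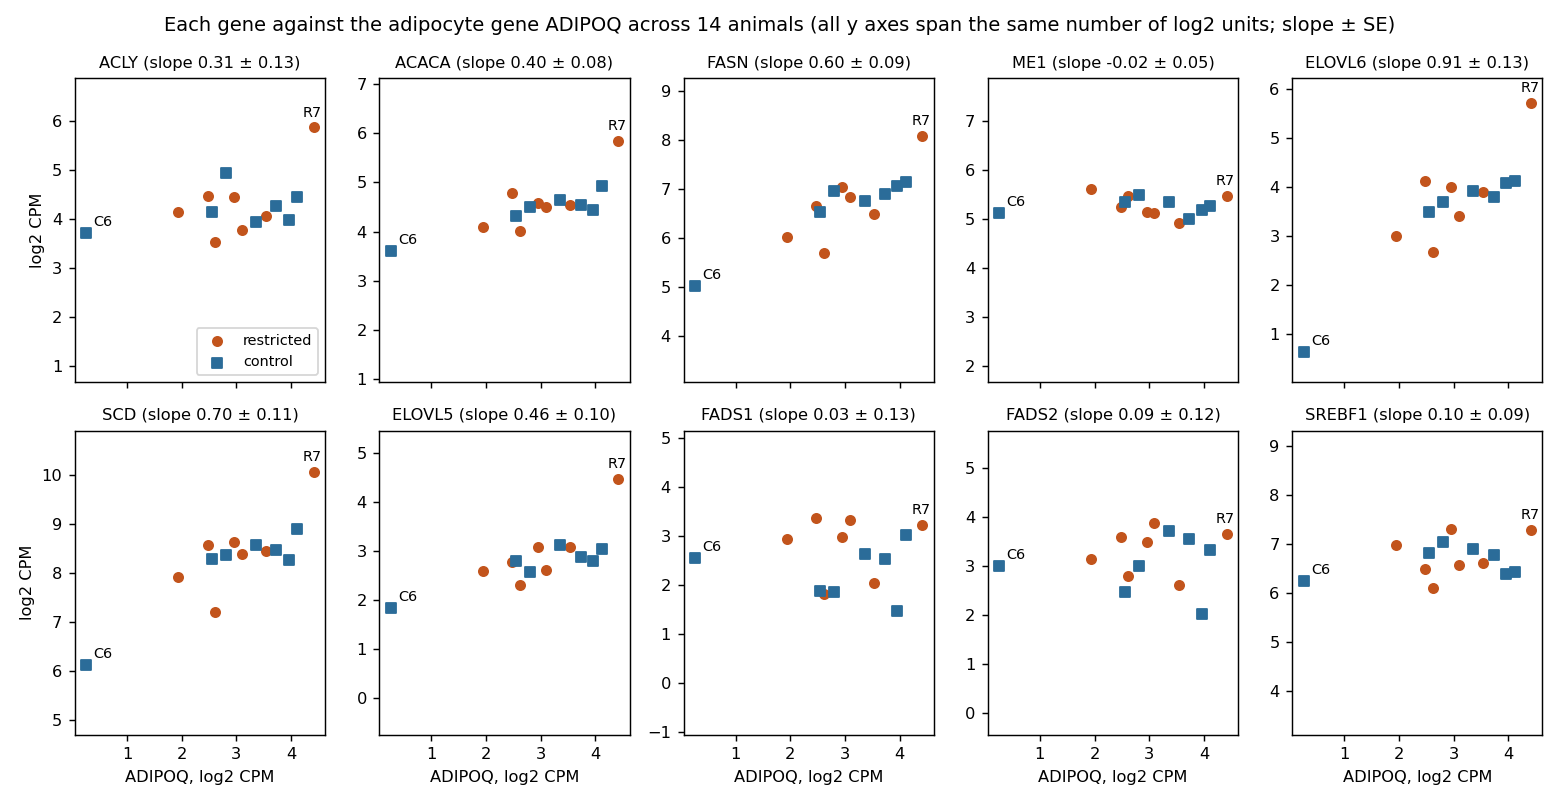
Log2 CPM of each gene against log2 CPM of ADIPOQ in 7 restricted (circles) and 7 control (squares) offspring; all vertical axes span the same number of log2 units, and each title gives the slope at equal diet with its SE. FASN, SCD and ELOVL6 climb between control 6 (C6) and restricted 7 (R7), whereas ME1, FADS1, FADS2 and SREBF1 show slopes of 0.105 or less.

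Measured against each other, FASN and SCD kept a narrow ratio. CPM of SCD over FASN ran from 2.88 to 3.96 with a median of 3.72 in restricted and from 2.15 to 3.56 with a median of 2.99 in control offspring, so the highest ratio, in restricted 7, was 1.84 times the lowest, in control 6. SCD alone spanned 15.3 times and FASN 8.32 times. The ratio of FADS1 to FADS2 was similarly narrow, from 0.495 to 0.870 in restricted and from 0.446 to 0.799 in control offspring, a span of 1.95 times. The ratio of ME1 to FASN spanned 6.48 times, being lowest in restricted 7 and highest in control 6, and that of SREBF1 to FASN 4 times between the same animals. The ratio of FASN to ADIPOQ spanned 3.86 times and was highest in control 6, at 30.1, where ADIPOQ rested on 18 reads.

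**Figure D5:**
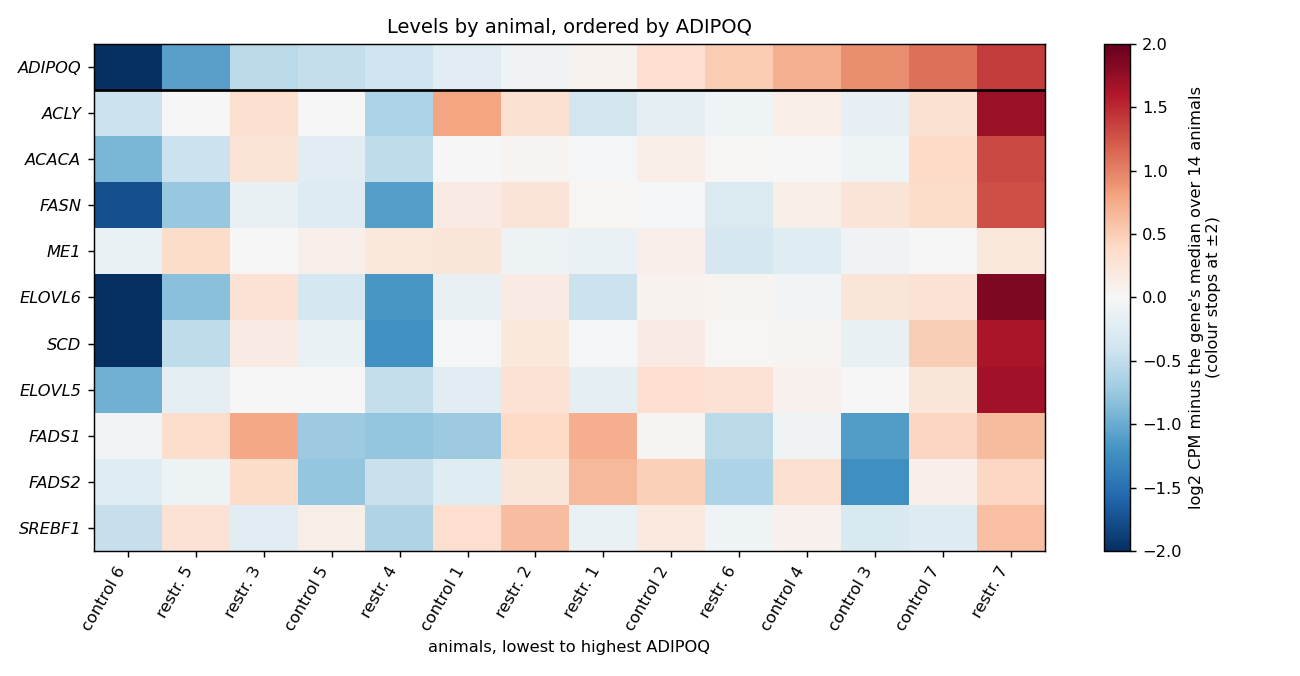
Log2 CPM of ADIPOQ and the 10 genes minus each gene's median over 14 animals (colour, red above and blue below, stopping at 2 units), with animals ordered by ADIPOQ. ELOVL6, SCD, FASN, ACACA and ELOVL5 are lowest in control 6 and highest in restricted 7, and FADS1 and FADS2 are lowest in control 3.

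The genes most like each of the 10, by Pearson's r of log2 CPM over the 14 animals among 10926 genes with a symbol and a mean of at least 1 CPM, are given as descriptions without a test. Among the nearest genes of FASN were THRSP (0.969), a thyroid hormone responsive gene of lipogenic tissues, and SCD (0.958). Those of SCD included ELOVL6 (0.976) and FASN, and ELOVL6 was nearest to SCD, the adipocyte hormone gene LEP (0.962) and THRSP (0.962). ACACA was nearest to SCD (0.944) and ELOVL5 (0.940), and ELOVL5 to ACACA, SOST (0.925) and SCD (0.910). ACLY had other neighbours: ACSS2 (0.928), which makes acetyl-CoA from acetate, ANGPTL8 (0.899), a regulator of lipoprotein lipase, and INSIG1 (0.856), which holds back SREBP processing. FADS1 and FADS2 were each other's nearest gene (0.868). SREBF1 was nearest to RFC5 (0.844), and ME1 to VPS36 (0.887), and neither had one of the 10 among its 3 nearest genes.

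SREBF1 was also set in the place of ADIPOQ in the slope fit, a choice made after seeing the data. No gene passed the adjusted threshold (0 of 12186), and 847 (6.95%) had an unadjusted p under 0.05, among them 6 of the 9 other genes. The slope on SREBF1 was 1.24 ± 0.31 for ACLY (SE; edgeR unadjusted p = 0.000984, adjusted p = 0.535), 1.11 ± 0.33 for ELOVL5, 1.39 ± 0.47 for SCD, 1.153 ± 0.40 for FASN, 0.78 ± 0.31 for ACACA and 1.45 ± 0.58 for ELOVL6. FADS2, FADS1 and ME1 were at 0.43 ± 0.35, 0.25 ± 0.40 and 0.15 ± 0.15. Without restricted 7 only ACLY remained under an unadjusted p of 0.05, with a slope of 0.685 (edgeR unadjusted p = 0.0133, adjusted p = 0.65). The slope of ELOVL6 was then 0.620 and that of SCD 0.789. Without control 6, 5 of the 9 were under it. Without both animals again only ACLY was, at 0.593 (edgeR unadjusted p = 0.0403, adjusted p = 0.719). The slope was then 0.335 for FASN, 0.360 for SCD, 0.272 for ELOVL5, 0.147 for ELOVL6 and 0.019 for ACACA.

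Other genes of the pathway were taken as lists, chosen with earlier results of these data known, and none of their members passed the diet test. Of 14 regulators of lipogenesis, 1 rose with ADIPOQ: THRSP, with a slope of 1.05 ± 0.19 (edgeR adjusted p = 0.0317), at 9.95 to 135 CPM in restricted and 2.80 to 49.6 CPM in control offspring. THRSP lost its call under 11 of 25 alternatives, over which the adjusted p ran from 6.33e-05 to 0.935. Leaving out single animals ended it for restricted 7 (slope 0.888), restricted 5 (0.997), control 2 (1.05), control 3 (1.066), control 6 (0.948) and control 7 (1.077). It was also lost with the title letter as covariate (adjusted p = 0.168) and by limma voom (adjusted p = 0.191). The same held among titles ending in A, without control 7, restricted 4 and restricted 7, and without control 6 and restricted 7. None of the 13 genes of precursor and NADPH supply that are reported, 13 tested partners of elongation and desaturation, 10 genes of glycerolipid assembly or 6 of mitochondrial fatty acid synthesis passed in either direction. Median slopes were 0.016 for the regulators, 0.021 for the precursor and NADPH list, 0.061 for the partners, 0.053 for glycerolipid assembly and -0.003 for mitochondrial synthesis, against 0.351 for the 10 genes and 0.001 over all genes. The smallest diet p-values in these lists were those of ACSS1, a mitochondrial acetyl-CoA synthetase, and HSD17B12, a reductase of the elongation cycle. ACSS1 was at 18.3 ± 1.97 CPM in restricted and 21.4 ± 2.02 CPM in control offspring (SD, n = 7 each), a fold change of 0.856 (edgeR unadjusted p = 0.0153, adjusted p = 1). HSD17B12 was at 24.4 ± 3.18 CPM in restricted and 20.9 ± 1.51 CPM in control offspring, a fold change of 1.17 (edgeR unadjusted p = 0.0172, adjusted p = 1).

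Among the cell type lists, 5 of 10 adipocyte markers tested besides ADIPOQ rose with it, with a median slope of 0.664. Over all genes 23 of 12186 (0.189%) did. Of 9 muscle fibre, 7 fibroblast, 7 endothelial, 6 smooth muscle and pericyte, 7 macrophage and 6 interferon response genes tested, 0 passed. Without control 6 the only genes of all that passed were FABP4 and MGST1. Without both control 6 and restricted 7 no gene passed, so the marker calls also rested on these animals. The median slope was -0.044 for the fibre list, 0.197 for the fibroblast list, -0.003 for the endothelial list, 0.079 for the smooth muscle list, 0.001 for the macrophage list and 0.655 for the interferon list, in which restricted 7 was highest. Of 7 liver and mammary markers, from other tissues known for these enzymes, CSN2 and CSN3 were not found in the table used here. APOA1 was the only one to pass the filter, at 0.414 to 1.36 CPM in restricted and 0.583 to 1.12 CPM in control offspring. Its slope of 0.08 ± 0.13 did not pass. ALB, APOB, TTR and LALBA fell below the filter, so no slope is given for them. The summed level of this list was highest in restricted 7, at 50.9 CPM, so the slope of APOA1 does not stand for the list. The milk gene LALBA had at most 2 reads in any animal.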

How the data were processed

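The authors deposited 1 table of whole-number read counts by gene for the 14 animals, with no normalization. Per the submitters' processing notes, FastQC, HISAT2, featureCounts, edgeR and the build ARS-UCD1.2 were used; for their versions, the annotation release and the strand setting, the sources used here give nothing. Gene length in bases, another deposited column, served only for CPM per kilobase. Groups come from the treatment label.

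Tests were run on these counts in R 4.3.3 by edgeR 4.0.16 (filterByExpr, minimum count 10 and total 15, which left 12187 genes; trimmed mean of M-values; quasi-likelihood test; Benjamini-Hochberg over all genes, threshold 0.05). The slope fit had diet and log2 CPM of ADIPOQ (prior count 2) as terms and left ADIPOQ out. SE is the log2 value divided by the root of F. Correlations used 100000 resamples, or all orders within 7 or 9 animals. No library was a copy of another: comparing counts between pairs of libraries gave a chi-square per degree of freedom of at least 12.6. The fits were tested on simulated data with known changes. At the same threshold the diet test recovered 45.3% of 1.5-fold changes and 81% of 2-fold changes. The slope test recovered 78.7% of slopes of 0.4 and 96.3% of slopes of 0.7. The changed genes were drawn at random from all tested genes. The median SD of log2 CPM was 0.582 for the 10 genes against 0.231 over all tested genes. These rates therefore do not give the recovery for the 10 genes. DESeq2 1.42.0 and limma 3.58.1 were alternatives, beside other scaling, filters, left-out animals and the title letter.

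The genes and lists were chosen with earlier results of these data known. Named were the 10 genes, ADIPOQ, the 3 most correlated genes of each, and from the pathway lists the genes past a test or, where none passed, the 2 with the smallest p. SOST, RFC5 and VPS36 came from this rule; 1 gene that it also names, in the precursor and NADPH list and among the most correlated genes, is not reported here. The 10 genes matched the RefSeq table of ARS-UCD2.0, which was used only for which genes overlap, so no coordinates are given.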

Additional observations from a re-analysis of the deposited data

Results flagged for a closer look

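Values far from the rest of their group were found in 8 of the 22 combinations of gene and diet examined (10 genes and ADIPOQ, on log2 CPM). Chance marks about 1 in 20 of independent combinations. All 8 were values of control 6 or restricted 7, and many of these genes varied together, so the count cannot be set against that rate. The measure is the gap to the nearest animal divided by the range of the group; it passed Dixon's 95% critical value for 7 animals in each case below. Control 6 lay below the other control animals by 0.818 of the range for ELOVL6, 0.772 for SCD, 0.707 for FASN, 0.593 for ADIPOQ and 0.572 for ELOVL5. Restricted 7 lay above the other restricted animals by 0.644 of the range for ELOVL5, 0.599 for ACLY and 0.573 for ACACA.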

How the results depend on the processing

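No gene of the 10 passed the diet test under any alternative; over all genes DESeq2 called 1 (MTSS1L) and the 9 animals whose title ends in A gave 1 (ENSBTAG00000025385). FADS1 and FADS2 had a positive diet difference under all 24 alternatives. The count of genes rising or falling with ADIPOQ, 23 in the report, was 51 without a filter on low counts, 43 by DESeq2, 9 with the title letter as covariate, 2 among titles ending in A (FABP4 and PLIN1), 1 without control 7, restricted 4 and restricted 7 (FABP4), and 0 without control 6 and restricted 7. Leaving out each animal in turn gave 2 to 28, the lowest without control 6, with 7 without restricted 7 and 12 each without control 3 and restricted 5. With the title letter, 1 gene (PALMD) differed in slope between the diets. With the mean of PLIN1, CIDEC and LEP in place of ADIPOQ, 1 of the 10 passed the permutation test, ELOVL6.

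Values that changed sign, as log2 differences (restricted over control), slopes on ADIPOQ or Pearson's r, were as follows; the cause was not tested. Without control 6 and restricted 7, chosen after seeing the data as was the slope on SREBF1, the differences were FASN -0.378, ACACA -0.13, ACLY -0.217, SCD -0.228, ELOVL5 -0.112, ELOVL6 -0.255, ME1 -0.01, SREBF1 -0.014 and THRSP -0.566. The slopes were ACLY -0.149, SREBF1 -0.2 and ACSS1 0.025, and r was -0.007 for ACLY, -0.16 for FADS1, -0.083 for FADS2 and -0.256 for SREBF1. Among titles ending in A the differences were FASN -0.447, ACACA -0.02, ACLY -0.215, SCD -0.102, ELOVL6 -0.042, SREBF1 -0.032 and THRSP -0.646, the slopes FADS1 -0.078, FADS2 -0.071 and ACSS1 0.007, and r -0.242 for FADS1 and -0.272 for FADS2. Without control 7, restricted 4 and restricted 7 the differences were FASN -0.017, ACLY -0.014, ME1 -0.03 and THRSP -0.062, the slopes FADS1 -0.135 and ACSS1 0.031, and r -0.266 for FADS1 and -0.052 for FADS2. With the title letter the differences were FASN -0.088 and THRSP -0.053 and the slopes FADS1 -0.062 and FADS2 -0.068. By limma voom the slope of FADS1 was -0.01. With PLIN1, CIDEC and LEP the slopes were ME1 0.004 and ACSS1 0.002, and r of ME1 0.037.

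Leaving out each animal in turn, the diet difference ran from -0.219 to 0.262 for FASN, -0.025 to 0.376 for ACACA, -0.142 to 0.437 for ACLY, -0.051 to 0.529 for SCD, -0.055 to 0.655 for ELOVL6, -0.016 to 0.1 for ME1 and -0.361 to 0.514 for THRSP. The slope ran from -0.05 to 0.172 for FADS1, -0.108 to 0.015 for ME1 and -0.023 to 0.012 for ACSS1, and r from -0.119 to 0.173 for FADS1 and -0.389 to 0.058 for ME1. The median ratio of highest to lowest CPM over the 10 genes, 4.92 in the report, ran from 3.21 to 4.93.

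No paired analysis was possible because the replicate numbers follow accession order and pair no animals across the diets. Depth limits the low end of the ADIPOQ range, since ADIPOQ and ELOVL6 rested on 18 and 24 reads in control 6.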
